A study of Mus musculus with 4 samples.

Results

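Interferon-stimulated genes are the genes that a cell switches on when interferon binds its receptors. Type I interferons act through IFNAR1 and IFNAR2, the kinases JAK1 and TYK2 and a transcription factor complex that binds the interferon-stimulated response element of target promoters, while interferon gamma acts largely through the gamma-activated sequence. The products block viral replication, tag proteins with the ubiquitin-like modifier ISG15, or tune the sensing and signalling that started the response. Lung macrophages, neutrophils, lymphocytes and endothelial cells can all respond. The genes described here are 32 classic interferon-stimulated genes outside the Ifit, Oas, Slfn, Ifi200, Ifitm, guanylate-binding protein and Irg families. They were chosen by name, with no measured value, and 31 of the 32 were among the 31053 genes of the deposited gene list. Mx2 was not in that list and is not analysed here.

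Their transcripts were counted in single leukocytes from the lungs of Balb/c mice, taken 14 days after 4T1 cells were given intravenously. 4T1 is a Balb/c mammary tumour line that forms lung metastases. The tumour cells were 4T1.WT in 2 libraries and 4T1.PD-L1 KO in the other two, so that the knockout lay in the injected cells and the host mice were not modified. PD-L1, encoded by Cd274, binds the inhibitory receptor PD-1, and the series title names type I interferon as the response of interest. The mice's age and sex, how many mice each library pools and how many knockout clones were used are not stated in the labels.

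The deposited file names carry the opposite condition to the sample labels in all 4 libraries. Libraries are called WT-labelled and KO-labelled (PD-L1 KO) throughout, and directions would be reversed if the file names were right. Values are given in the order WT-labelled 1, WT-labelled 2, KO-labelled 1, KO-labelled 2. The targeted gene cannot settle it: Cd274 had 517 and 419 UMIs (unique molecular identifiers, each marking 1 captured RNA molecule) in the WT-labelled libraries and 840 and 632 in the KO-labelled ones, but these are mostly host leukocytes with an intact gene. The 25 epithelial-gated cells, the class that could hold tumour cells, had no Cd274 UMI in any library. Nothing in the labels ties each library to its own mouse, so the p-values measure the spread between libraries, which may be technical.

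The 4 libraries held 2370 to 2736 barcodes and 17618220 to 19635983 UMIs, and 9051 cells were kept, with median depths of 4374 and 4616 UMIs in the WT-labelled libraries and 5096 and 5513.5 in the KO-labelled ones. No pair of libraries had more than 3 barcodes in common. Of the kept cells, 6114 (67.6%) fell into a class gated on marker genes, and 8 classes plus CD8 and CD4 T cells had at least 20 cells in every library. These were 1395 neutrophil-gated, 765 alveolar macrophage-gated, 797 monocyte/macrophage-gated, 142 dendritic-gated, 1122 T-gated, 455 NK-gated, 687 B-gated and 518 endothelial-gated cells. The endothelial-gated cells had come through the CD45 selection. Plasmacytoid dendritic cells, a known source of type I interferon, numbered 18, 11, 30 and 37 and were too few to test.

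Promoter windows of 300 bases, from 250 before to 50 after the start site (RefSeq, GRCm38.p6), were found for 23 of the genes. The core of the interferon-stimulated response element, GAAANNGAAA on either strand, occurred in 7 of these 23 (30.4%), against 3.44% of all 32851 windows and 3.99% of the 27025 genes with a window. The shorter core of the gamma-activated sequence, TTCNNNGAA, occurred in 5 of the 23 (21.7%), against 8.30% of all windows and 9.55% of all genes with a window. The stretches around the first core are shown for the members that hold it in front of their start, with the matched bases in capitals, for Isg15 (chr4:156200850-156200921, minus strand), Bst2 (chr8:71537562-71537627, minus strand), Trim30a (chr7:104465195-104465254, minus strand), Trim30d (chr7:104507856-104507915, minus strand), Phf11a (chr14:59297517-59297576, minus strand) and Phf11b (chr14:59341346-59341405, minus strand).
Isg15: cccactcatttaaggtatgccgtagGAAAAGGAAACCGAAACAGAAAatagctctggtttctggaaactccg
Bst2: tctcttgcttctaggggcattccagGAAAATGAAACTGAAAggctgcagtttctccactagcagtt
Trim30a: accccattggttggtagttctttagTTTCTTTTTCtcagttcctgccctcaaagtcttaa
Trim30d: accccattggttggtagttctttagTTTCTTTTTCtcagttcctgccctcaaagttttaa
Phf11a: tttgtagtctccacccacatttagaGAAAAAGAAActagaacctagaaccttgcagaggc
Phf11b: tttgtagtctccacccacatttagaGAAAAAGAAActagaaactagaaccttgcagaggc

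Isg15 held 3 overlapping copies of the core, the first at base -78 from its start site, and Bst2 held 2, the first at base -130. Both Trim30 genes carried it on the opposite strand. The seventh gene, Eif2ak2, had GAAAACGAAA at base 18 after its start. The Trim30a and Trim30d stretches were identical at 59 of 60 bases, as were those of Phf11a and Phf11b. A match describes these letters in this window and is not evidence of a bound site.

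The same closeness reaches the 3' ends that the kit reads. Of the 91-base stretches in the last 500 bases of their transcripts, 22.2% in Phf11b, 15.4% in Phf11a, 14.4% in Trim30d, 9.03% in Phf11d and 6.92% in Serpina3g were identical to a stretch of a paralogue. Counts of these 5 genes are therefore uncertain by an unknown amount. The last 500 bases of the other members shared none with another gene, but the stretches that Trim30d shared were found in transcripts of Trim30a.

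In whole libraries, all 31 genes had a higher fitted level in the KO-labelled libraries, and the median log2 difference was 0.58, against -0.02 over all 13905 genes tested. Their summed level averaged 2363 ± 197.3 and 3359 ± 320.3 CPM (UMIs scaled to a common total per library; SD, n = 2). It was 2503 and 2224 in the WT-labelled libraries and 3133 and 3586 in the KO-labelled ones. Both KO-labelled libraries lay above both WT-labelled ones for 28 of the 31 genes, a pattern shown by 15.1% of all genes. None of the 31 was called by edgeR's quasi-likelihood test at an adjusted p under 0.05 (Benjamini-Hochberg over all genes tested), where 0% of all genes were called, and the smallest adjusted p was 0.749. At an unadjusted p under 0.05, 24 of the 31 were higher, against 2.32% of all genes, and DESeq2 called 1, Phf11a (1.33 on the log2 scale, adjusted p = 0.0453).

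**Figure D1:**
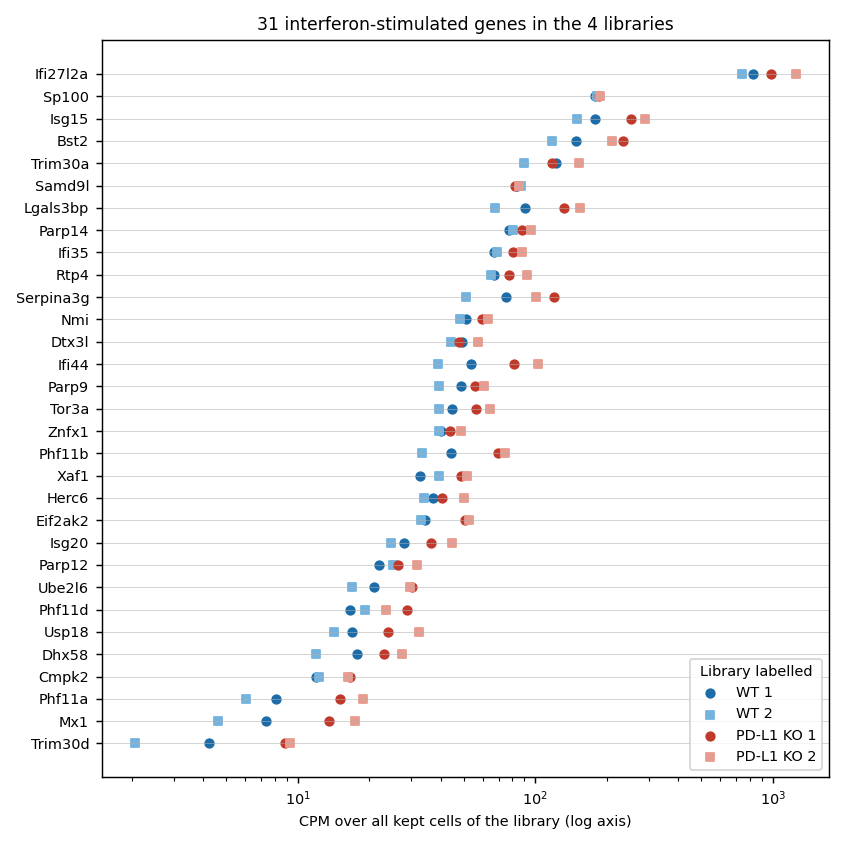
Level of each of the 31 genes over all kept cells of a library, in CPM on a log axis, with 1 point per library, genes ordered by their mean in the WT-labelled libraries. For 28 of the 31 genes both red points (labelled PD-L1 KO) lie to the right of both blue ones (labelled WT).

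Without the first WT-labelled library 25 of the 31 genes were called higher, but 19.6% of all 13522 genes then tested were called too, the single remaining WT library being assumed to vary like the others. Whole-library sums also mix cell types. Monocyte/macrophage-gated cells, in which many of these genes were high, numbered 195 and 156 in the WT-labelled libraries and 237 and 209 in the KO-labelled ones. Endothelial-gated cells numbered 110 and 220 against 111 and 77, highest in the second WT-labelled library, the one that remained in that fit. More cells of a type and more RNA per cell cannot be told apart in such sums, and the part of cell numbers in the result was not tested.

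The 4 genes of ISG15 conjugation were all higher in the KO-labelled libraries, by a median of 0.75 on the log2 scale, with 3 of the 4 at an unadjusted p under 0.05. Isg15 (chr4:156199424-156200818), the modifier itself, was measured at 178.2 and 149.1 CPM in the WT-labelled libraries and 252.9 and 288.2 in the KO-labelled ones, a log2 difference of 0.79 ± 0.17 (SE, n = 2 libraries per group, edgeR). Ube2l6, the E2 enzyme that hands ISG15 on, went from a mean of 19.0 to 29.9 CPM (log2 difference 0.72), and Herc6, the mouse ligase, from 35.6 to 45.3 (0.41). Usp18, which removes ISG15 and damps receptor signalling, averaged 15.6 and 28.2 CPM (0.92). The libraries did not overlap for any of the 4.

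Among the antiviral effectors, 8 were measured and the median log2 difference was 0.59. Mx1, a dynamin-like GTPase that traps viral nucleoproteins, was at 7.36 and 4.62 CPM in the WT-labelled libraries and 13.6 and 17.4 in the KO-labelled ones (log2 difference 1.42 ± 0.31). Many laboratory strains carry defective Mx1 alleles, so its RNA is no measure of protein function. Eif2ak2, the double-stranded RNA-activated kinase PKR, was at 34.2 and 32.9 against 50.3 and 52.5 CPM (0.68 ± 0.11), which gave the smallest unadjusted p of the 31 genes, 0.00224. Bst2 (chr8:71534255-71537456), the tetherin that holds budding virions at the membrane, was at 147.7 and 117.8 against 233.8 and 209.7 CPM (0.80 ± 0.17). Cmpk2, a mitochondrial nucleotide kinase next to viperin, was at 11.9 and 12.3 against 16.5 and 16.3 CPM (0.51 ± 0.12). All of these 4 had separate groups. The exonuclease gene Isg20 averaged 26.3 and 40.3 CPM (0.68), Rtp4 65.8 and 84.9 (0.43), and Znfx1, an RNA helicase of the antiviral response, 39.7 and 46.2 (0.28). Samd9l was the exception, with 83.3 and 87.4 against 81.8 and 85.3 CPM: its log2 difference was 0.034 under TMM scaling and -0.032 under library totals.

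The ADP-ribosylation genes showed the smallest differences of the 5 role groups, with a median of 0.33. Parp9 and its partner Dtx3l, which form a complex of a PARP and a ubiquitin ligase and lie on opposite strands of chromosome 16 with overlapping 5' ends, averaged 44.1 against 58.3 CPM (0.46) and 46.5 against 52.6 (0.24). Parp12 averaged 23.6 against 29.1 CPM (0.37) and Parp14 79.0 against 92.0 (0.29). The Dtx3l libraries overlapped, with 48.9 CPM in one labelled WT and 47.8 in one labelled PD-L1 KO.

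The regulators of sensing and signalling were higher by a median of 0.41. Dhx58, the LGP2 helicase that modulates RIG-I-like receptors, averaged 14.9 and 25.2 CPM (0.82). Nmi and Ifi35, which bind each other, averaged 49.6 against 61.2 CPM (0.37) and 67.8 against 84.2 (0.38). Trim30a, a negative regulator of Toll-like receptor signalling, was at 121.6 and 89.8 against 117.6 and 152.4 CPM, and its libraries overlapped (0.41). Its low-abundance relative Trim30d averaged 3.15 and 9.03 CPM, and its log2 difference of 1.57 was the largest of the 31, with 37 to 160 UMIs per library.

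The 10 other induced genes had a median of 0.73, and both KO-labelled libraries lay above both WT-labelled ones for all 10. Phf11a, Phf11b and Phf11d are neighbouring PHD-finger genes on chromosome 14. Phf11a was at 8.06 and 6.07 against 15.1 and 18.8 CPM (1.32 ± 0.24). Phf11b was at 44.3 and 33.3 against 69.4 and 74.8 CPM (0.95 ± 0.20), and Phf11d at 16.6 and 19.3 against 28.7 and 23.4 (0.61 ± 0.14). All 3 separated the groups, within the limit that their reads can be shared. Xaf1, a pro-apoptotic zinc-finger gene, was at 32.7 and 39.2 against 48.6 and 51.6 CPM (0.55 ± 0.11), and Ifi44 at 53.7 and 38.8 against 81.5 and 102.8 (1.05 ± 0.24).

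Ifi27l2a, a small mitochondrial membrane protein gene, held 33.2% of all UMIs of the 31 genes, at 827.0 and 738.8 against 987.2 and 1256 CPM (0.58). Without it the summed level was 1676 and 1485 against 2146 and 2330 CPM, so the separation of the sums did not depend on that gene. Lgals3bp, a secreted glycoprotein gene, averaged 79.3 and 143.0 CPM (0.91), Serpina3g, a serine protease inhibitor gene, 63.4 and 110.7 (0.86), and Tor3a 41.9 and 60.1 (0.58). Sp100, a nuclear body gene, differed least in this group, with 178.6 and 182.2 against 185.2 and 186.8 CPM (0.11).

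The level of the genes differed strongly between cell classes. Averaged over the 4 libraries, 9 of the 31 were highest in monocyte/macrophage-gated cells, 7 in endothelial-gated, 5 each in neutrophil-gated and dendritic-gated cells, 2 each in T-gated and NK-gated cells and 1 in alveolar macrophage-gated cells. For 7 genes the top class did not overlap the next in any library: Isg15, Isg20, Rtp4 and Trim30a in neutrophil-gated cells, Dhx58 in monocyte/macrophage-gated, Xaf1 in endothelial-gated and Phf11a in dendritic-gated cells. For the other genes the first and second class were not separated. Isg15 averaged 1114 CPM in neutrophil-gated cells (983.5, 1271, 1388 and 815.3 by library) and 281.3 in monocyte/macrophage-gated cells, against 21.3 in alveolar macrophage-gated cells, which were lowest.

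**Figure D2:**
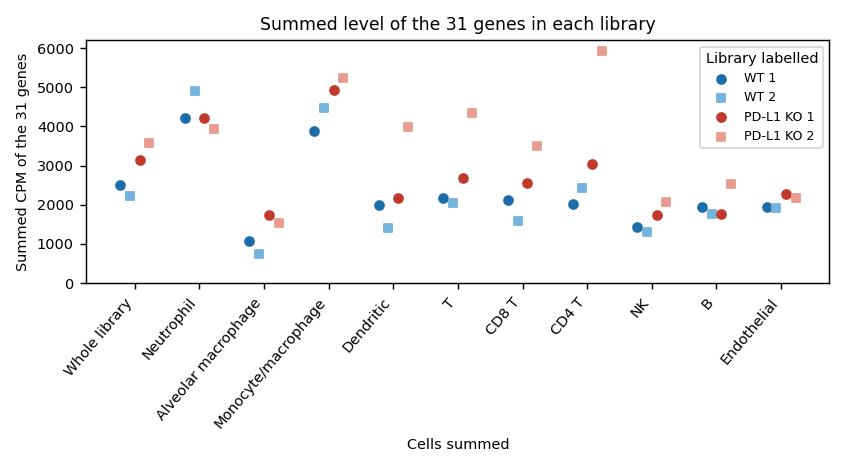
Summed CPM of the 31 genes (linear axis from 0) in each library for all kept cells and for each gated class, with 1 point per library. Alveolar macrophage-gated cells lie lowest, and the KO-labelled libraries lie above both WT-labelled ones in every class shown except neutrophil-gated and B-gated cells.

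Summed over the 31 genes, both KO-labelled libraries lay above both WT-labelled ones in 8 of the 10 classes, CD8 and CD4 T cells being parts of the T cells. The 2 classes that overlapped were neutrophil-gated cells, with 4203 and 4914 against 4228 and 3936 CPM, and B-gated cells, with 1936 and 1769 against 1761 and 2533. The classes come from the same 4 libraries and are not independent of each other.

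Alveolar macrophage-gated cells held 4 calls, which were lost when the replicate number was added to the fit as a block. Of the 25 members with at least 40 UMIs over the 4 libraries, which is the limit for testing, all 25 were higher in the KO-labelled libraries, with a median log2 difference of 0.63 against -0.0018 over the 9057 genes tested. Their summed level was 1068 and 741.8 CPM against 1734 and 1546. Ifi44, Lgals3bp, Rtp4 and Bst2, 4 of the 25, were called higher by edgeR, while 0.243% of all genes tested were called. The limit for testing is on the total, and the WT-labelled libraries alone fell short of it for Ifi44 and Rtp4. The groups were separate for 23 of the 25, against 17.5% of all genes, and 19 were higher at an unadjusted p under 0.05, against 5.1%.

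Ifi44 (chr3:151730922-151749960) ranked first of the 9057 genes. It had 7.07 and 0.543 CPM, or 19 UMIs and 1 UMI, in the WT-labelled libraries and 41.7 and 37.7 CPM, or 85 and 60 UMIs, in the KO-labelled ones, a log2 difference of 3.19 ± 0.42 (SE, n = 2 per group, adjusted p = 0.0296, edgeR). The share of cells with an Ifi44 UMI was 3.36% and 0.578% against 16.2% and 16.6%, so the rise was not confined to 1 cell. Lgals3bp (chr11:118392751-118402092) was at 112.7 and 112.4 against 201.2 and 181.6 CPM, a difference of 0.79 ± 0.11 (adjusted p = 0.0296), with UMIs in 49.3% and 54.3% against 67.7% and 67.5% of cells. Its 2 WT-labelled libraries were nearly equal.

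Rtp4 (chr16:23520291-23614222), a zinc-finger gene that limits flavivirus replication, was at 10.0 and 3.801 against 32.9 and 28.9 CPM, a log2 difference of 2.08 ± 0.32 (adjusted p = 0.0394, edgeR). It was found in 7.46% and 3.47% against 18.6% and 17.8% of cells. Bst2 was at 69.2 and 51.6 against 148.2 and 107.4 CPM, a difference of 1.09 ± 0.18 (adjusted p = 0.0394), in 39.6% and 34.1% against 62.3% and 53.5% of cells. For each of these 4 genes the groups did not overlap. DESeq2 called Bst2 (adjusted p = 0.00914) and Lgals3bp (0.0160) and gave no adjusted p for Ifi44 and Rtp4.

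Isg15 came next, at 14.1 and 9.77 against 34.4 and 27.0 CPM, a log2 difference of 1.35 ± 0.25 that missed the threshold (adjusted p = 0.0592). Serpina3g was at 20.5 and 2.17 against 101.1 and 33.3 CPM (2.46, adjusted p = 0.151), and Ifi27l2a at 235.1 and 57.0 against 414.7 and 365.7 (1.39, adjusted p = 0.270). For both the lower of the WT-labelled libraries was the second. By role, the 9 tested genes of the other induced group had a median of 1.17, the antiviral effectors 0.63, the regulators 0.55, the ADP-ribosylation genes 0.46 and the ISG15 conjugation genes 0.24. All 4 ADP-ribosylation genes were higher at an unadjusted p under 0.05.

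**Figure D3:**
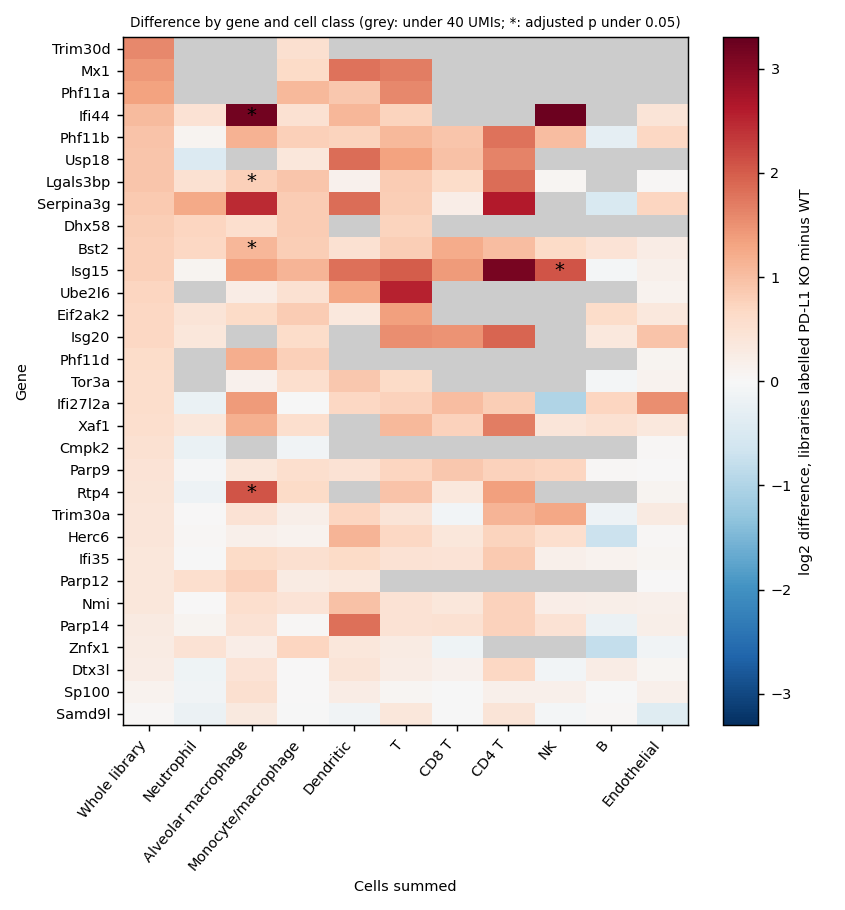
Log2 difference (labelled PD-L1 KO minus labelled WT, colour scale) for each of the 31 genes in whole libraries and in each gated class. Grey cells were not tested (under 40 UMIs), and asterisks mark an adjusted p under 0.05, which 4 genes reached in alveolar macrophage-gated cells and 1, Isg15, in NK-gated cells.

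The 4 calls in alveolar macrophage-gated cells kept their side of the threshold when any 1 library was left out, and the number of members called was then 4 to 10, with 9 without the first WT-labelled library and 10 without the second KO-labelled; 1.27% and 2.48% of all genes were called in those 2 fits. With the replicate number as a block 0 were called, as were 0% of all genes. The calls were also lost when only cells with at most 1 marker of another class were kept (399 of the 765 cells): Ifi44 then differed by 3.52 (adjusted p = 0.0978), Bst2 by 1.12 (0.0978), Rtp4 by 1.61 (0.580) and Lgals3bp by 0.54 (0.347), while Ifi27l2a and Serpina3g were called. Markers of other cell types moved with the groups in these cells: the 4 check markers of monocytes and macrophages (F13a1, Ace, C1qb and Trem2) summed to 110.5 and 102.6 CPM in the WT-labelled libraries and 156.6 and 159.6 in the KO-labelled ones, and their 6 gate markers to 135.4 and 132.0 against 152.6 and 148.9. The 4 check markers of neutrophils (S100a8, S100a9, Hdc and Trem1) summed to 168.9 and 141.2 against 194.4 and 389.6 CPM, while their 6 gate markers overlapped. None of these markers was at 0. The 6 gate markers of alveolar macrophages themselves summed to 3243 and 3567 against 3222 and 3032 CPM, and their 4 check markers (Marco, Chil3, Car4 and Olr1) to 3711 and 2820 against 4049 and 4407. The part of all these in the result was not tested.

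Monocyte/macrophage-gated cells had all 31 genes above the limit, and 28 were higher in the KO-labelled libraries, with a median log2 difference of 0.55. Their summed level was 3878 and 4466 against 4928 and 5237 CPM. By edgeR 0 were called, as were 0% of the 8694 genes. At an unadjusted p under 0.05, 16 were higher, against 3.97% of all genes, and the groups were separate and higher for 21, against 18.6%. Isg15 had the smallest p of all 8694 genes. It was at 188.7 and 168.6 against 359.1 and 408.8 CPM (log2 difference 1.13 ± 0.17, adjusted p = 0.553), in 32.8% and 29.5% against 51.5% and 55.0% of cells, and DESeq2 called it (adjusted p = 0.0103).

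Lgals3bp in these cells was at 131.0 and 128.0 against 214.8 and 260.6 CPM (0.90 ± 0.17), Bst2 at 164.1 and 145.8 against 277.7 and 257.0 (0.81 ± 0.17) and Eif2ak2 at 42.1 and 54.6 against 78.2 and 88.8 (0.84 ± 0.19). All 4 genes had separate groups. Ifi27l2a, at 1778 and 2449 against 2025 and 2093 CPM, did not. Isg15 and Lgals3bp were called when the first KO-labelled library was left out, and Isg15 when the second was, in fits that called 1.18% and 0.602% of all genes. Some marker lists of other types moved with the groups here too, with none of the markers given at 0. Check markers of neutrophils summed to 168.3 and 166.6 against 265.9 and 405.7 CPM, and those of alveolar macrophages to 111.2 and 90.3 against 129.8 and 143.5. The gate markers of both types overlapped, at 107.0 and 159.7 against 117.1 and 118.2 and at 19.8 and 5.95 against 13.1 and 42.6. The 8 gate markers of dendritic cells summed to 158.1 and 102.2 against 187.2 and 172.4 CPM. The 4 check markers of dendritic cells went the other way, at 220.6 and 332.3 against 203.5 and 175.0. The cells' own check markers were higher, at 2392 and 2515 against 2878 and 2839 CPM, and their own gate markers overlapped, at 5187 and 5942 against 6155 and 5913. The part of all these in the result was not tested.

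Neutrophil-gated cells had high levels of several of these genes and no shared direction. Of 25 tested, 16 were higher and 9 lower in the KO-labelled libraries, with a median log2 difference of 0.08. Neither edgeR (0% of 5270 genes) nor DESeq2 called any, and 1 was higher at an unadjusted p under 0.05, against 2.68% of all genes. Both KO-labelled libraries were above for 4 genes, against 10.7% of all genes, and below for 4, against 26.4%. Isg15, at 983.5 and 1271 against 1388 and 815.3 CPM, overlapped. Its UMIs were in 64.9% and 70.4% against 65.9% and 56.5% of cells.

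The 4 members of smallest p in neutrophil-gated cells were Serpina3g, Isg20, Bst2 and Dhx58. Serpina3g was at 8.11 and 7.48 against 25.5 and 10.4 CPM (log2 difference 1.25 ± 0.55), from 5 to 19 UMIs a library. Isg20 was at 114.6 and 107.8 against 142.2 and 124.4 CPM (0.37 ± 0.20), Bst2 at 26.4 and 44.9 against 68.4 and 34.6 (0.67 ± 0.37), and Dhx58 at 10.1 and 12.0 against 12.1 and 20.7 (0.71 ± 0.46). The groups overlapped for Bst2 and were separate for the others. The median over the 25 was -0.062 without the second WT-labelled library, -0.054 without the first KO-labelled, -0.044 without the first labelled WT and -0.039 under library totals, so its sign depended on 1 library and on the scaling. Rtp4, at 352.9 and 372.7 against 289.7 and 306.3 CPM, was lower (-0.17) without passing the test.

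The difference between classes was tested as an interaction, with the library as a block. Between alveolar macrophage-gated and neutrophil-gated cells, 22 members could be tested and 20 had a larger difference in alveolar macrophage-gated cells. Rtp4 alone was called, with a log2 difference 2.26 ± 0.34 larger in alveolar macrophage-gated cells (SE, adjusted p = 0.0169, edgeR), while 0.122% of the 4935 genes were called. At an unadjusted p under 0.05, 6 members were larger in alveolar macrophage-gated cells, against 3.32% of all genes: Rtp4, Ifi27l2a (1.86), Isg15 (1.25), Ifi44 (2.72), Sp100 (0.64) and Trim30a (0.47). Over 6 alternative fits, leaving out each library in turn among them, the Rtp4 difference ran from 1.84 to 3.15.

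Between monocyte/macrophage-gated and neutrophil-gated cells, none of 25 members was called (0% of 5062 genes). At an unadjusted p under 0.05, 2 members were larger in monocyte/macrophage-gated cells, against 2.82% of all genes: Isg15 by 1.12 ± 0.32 and Rtp4 by 0.83 ± 0.24 (both adjusted p = 0.920, edgeR). DESeq2 was not run for these interactions.

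**Figure D4:**
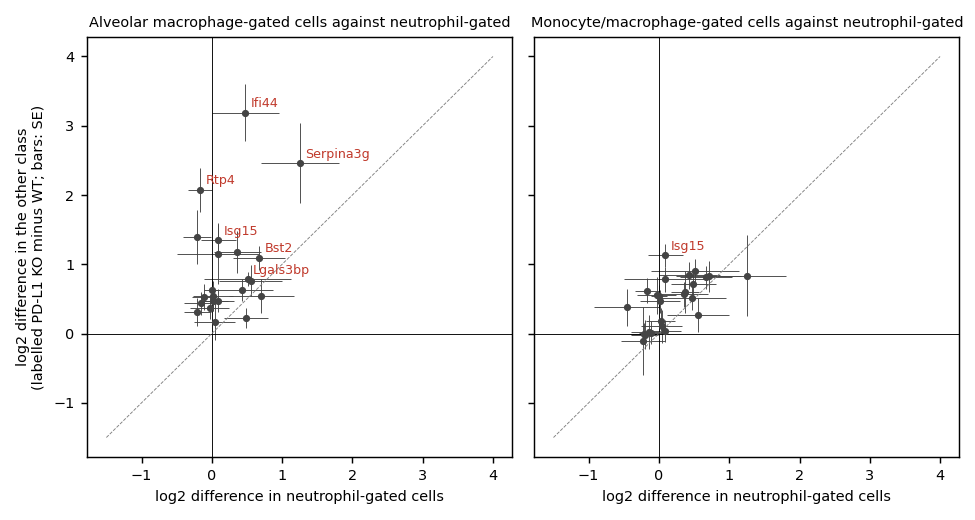
Log2 difference (labelled PD-L1 KO minus labelled WT) in alveolar macrophage-gated cells (left) and monocyte/macrophage-gated cells (right) against that in neutrophil-gated cells, 1 point per gene, bars showing the SE, the dashed line marking equal differences. Most points lie above the line, and Rtp4, at -0.17 in neutrophil-gated and 2.08 in alveolar macrophage-gated cells, is the gene whose distance from it passed the test.

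In T-gated cells all 27 tested members were higher in the KO-labelled libraries, by a median of 0.77 on the log2 scale. None was called by edgeR, which called 0.0362% of 8297 genes. At an unadjusted p under 0.05, 16 were higher, against 4.51% of all genes, and the groups were separate for 19, against 21.3%. Isg15 was at 36.5 and 36.2 against 92.4 and 209.6 CPM (1.99 ± 0.33, adjusted p = 0.138), and DESeq2 called it alone among the members (adjusted p = 0.000431). Ube2l6 was at 3.58 and 3.81 against 17.2 and 29.4 CPM (2.55 ± 0.45), Phf11b at 48.6 and 39.4 against 82.9 and 108.5 (1.08 ± 0.20), and Isg20 at 30.0 and 15.9 against 53.9 and 82.7 (1.53 ± 0.30).

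The groups did not overlap for these 4 genes, and the second KO-labelled library was the higher of its pair for each. Leaving out the first KO-labelled library gave 15 members called (2.16% of all genes), and leaving out the second gave 1, Isg15 (0.167%). The median over the members was 0.39 without the second KO-labelled library, against 0.61 to 1.08 without any other. Monocyte and macrophage gate markers, none of the 6 at 0, moved with the groups in T-gated cells, at 165.2 and 162.5 against 234.0 and 228.9 CPM in sum. The 4 check markers of monocytes and macrophages, none at 0, overlapped, at 61.5 and 39.35 against 60.4 and 40.45. The 4 check markers of dendritic cells, none at 0, summed to 16.5 and 26.0 against 49.2 and 78.1 CPM. The 8 gate markers of dendritic cells, none at 0, overlapped, at 515.7 and 736.3 against 617.8 and 491.8. The part of all these in the result was not tested. With cells limited to at most 1 marker of another class 7 members were called (0.413% of all genes).

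CD4 T cells, 61 to 83 per library, had the largest median of the 10 classes, each taken over its tested members. All 19 tested members were higher, with a median of 1.01 on the log2 scale, and the groups were separate for 15, against 22.3% of all genes. None was called by edgeR, which called 0.0218% of 4595 genes, and 12 were higher at an unadjusted p under 0.05, against 4.9%. Isg15 was at 14.8 and 32.7 against 156.0 and 293.6 CPM (3.12 ± 0.43, adjusted p = 0.0901), from 5 and 13 against 65 and 108 UMIs, and DESeq2 called it (adjusted p = 0.000114). It was found in 5.26% and 10.8% against 23.1% and 37.7% of the cells. The limit for testing is on the total, and the WT-labelled libraries alone fell short of it for Isg15, Serpina3g, Phf11b and Lgals3bp. A further 12 of the 31 members were not tested, so the median and the direction describe tested members only.

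Serpina3g in CD4 T cells was at 14.8 and 12.6 against 105.6 and 70.7 CPM (2.62 ± 0.41), Phf11b at 32.5 and 27.7 against 81.6 and 138.6 (1.80 ± 0.36) and Lgals3bp at 23.7 and 10.1 against 48.0 and 76.1 (1.83 ± 0.47). The groups were separate for all 3. Without the first KO-labelled library 9 members were called (3.94% of all genes), without the second 2 (0.976%), and without the second WT-labelled 1 (0.243%). The median was 0.45 without the second KO-labelled library and 0.86 to 1.34 without any other. Monocyte and macrophage gate markers summed to 215.9 and 233.8 against 379.2 and 274.5 CPM in these cells, and neutrophil gate markers to 2.96 and 7.54 against 21.6 and 97.9, with none of the 6 of either list at 0. The 4 check markers of neutrophils (S100a8, S100a9, Hdc and Trem1), none at 0, summed to 32.5 and 22.6 against 237.6 and 505.6 CPM. Those of monocytes and macrophages, none of the 4 at 0, overlapped, at 38.4 and 57.8 against 81.6 and 35.3. The part of all these in the result was not tested.

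In CD8 T cells 16 of 20 tested members were higher, by a median of 0.47 over all 20. None was called by edgeR, which called 0.236% of 5937 genes, or by DESeq2, and 6 were higher at an unadjusted p under 0.05, against 3.92%. Both KO-labelled libraries were above both WT-labelled ones for 7, against 18.5% of all genes. Bst2 was at 55.8 and 48.8 against 121.4 and 124.5 CPM (1.21 ± 0.24, adjusted p = 0.0674) and Ifi27l2a at 773.3 and 531.8 against 1106 and 1562 (1.03 ± 0.22, adjusted p = 0.0910). Isg15 was at 50.9 and 33.0 against 77.4 and 154.4 CPM (1.39 ± 0.35) and Isg20 at 41.1 and 11.01 against 73.4 and 72.2 (1.48 ± 0.41). These 4 had separate groups. Without the first WT-labelled library all 4 were called (3.35% of all genes), and without the second WT-labelled 1 member was called, Ifi27l2a (0.415%). The median was 0.11 without the second KO-labelled library, 0.88 without the first and 0.38 to 0.62 without a WT-labelled one. Check markers of dendritic cells, none of the 4 at 0, summed to 24.6 and 11.01 against 94.7 and 67.3 CPM, and gate markers of monocytes and macrophages, none of the 6 at 0, to 137.9 and 124.3 against 150.8 and 156.9. The 8 gate markers of dendritic cells, 1 at 0, overlapped, at 459.7 and 780.3 against 721.9 and 515.6. The 4 check markers of monocytes and macrophages, none at 0, overlapped too, at 75.5 and 36.2 against 38.7 and 47.3. Neutrophil check markers went the other way, at 119.9 and 280.0 against 70.7 and 64.8. The part of all these in the result was not tested.

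NK-gated cells gave 1 call among 16 tested members. Isg15 was at 27.2 and 34.2 against 118.1 and 137.9 CPM, from 13 and 13 against 37 and 47 UMIs, a log2 difference of 2.08 ± 0.30 (adjusted p = 0.00429, edgeR, which called 0.0808% of 4952 genes). This value rested on few cells: 22 of the 37 UMIs of the first KO-labelled library (59.5%) were in 1 cell, and the share of cells with an Isg15 UMI was 7.79% and 12.6% against 11.7% and 16.3%. The Isg15 UMIs of the WT-labelled libraries alone fell short of the limit for testing. The call was lost without the first WT-labelled library (adjusted p = 0.991), without the second (0.630) and under DESeq2 (0.248), while 3 members were called without the first KO-labelled (0.769% of all genes). Neutrophil-gated cells had the highest Isg15 of the 8 classes. In NK-gated cells the check markers of neutrophils, none of the 4 at 0, moved with the groups, at 23.0 and 23.7 against 92.6 and 126.2 CPM. The 6 gate markers of neutrophils, 1 at 0, overlapped, at 25.1 and 47.4 against 19.15 and 38.15. The part of either list in the result was not tested.

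Other members in NK-gated cells did not pass the test. Trim30a was at 58.6 and 55.3 against 111.7 and 164.4 CPM (log2 difference 1.29 ± 0.27, adjusted p = 0.101), Ifi44 at 10.5 and 2.63 against 22.3 and 111.5 (3.25 ± 0.71) and Phf11b at 44.0 and 47.4 against 83.0 and 99.8 (1.01 ± 0.30). The groups were separate for all 3. For Ifi44 this rested on few UMIs, fewer than those of Isg15 in every library. Its second KO-labelled library, at 111.5 CPM, lay well above the first, at 22.3. Without that second library the Ifi44 UMIs fall short of the limit for testing. Ifi27l2a went the other way, with 144.4 and 86.9 against 51.1 and 64.6 CPM (-1.003 ± 0.29, adjusted p = 0.436). Of the 16 members, 8 were above in both KO-labelled libraries, against 16.6% of all genes, and 4 were higher at an unadjusted p under 0.05, against 3.31%.

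**Figure D5:**
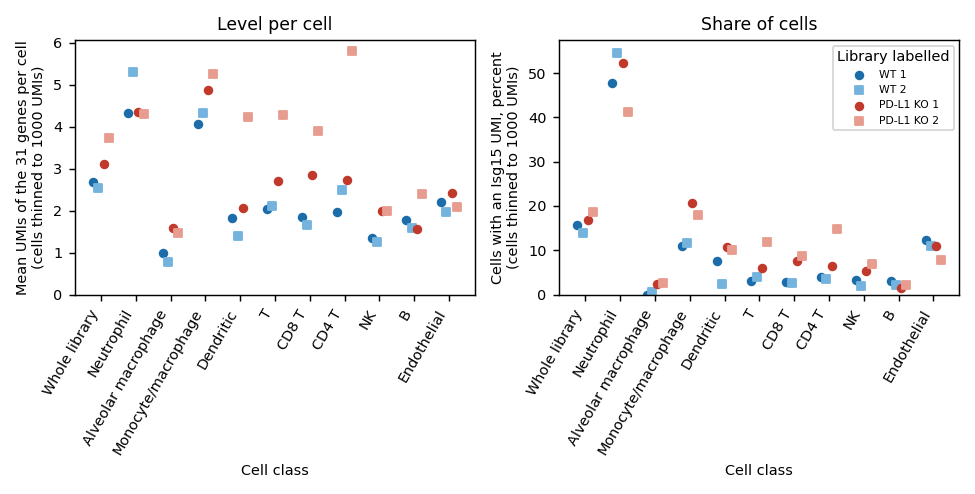
Mean UMIs of the 31 genes per cell (left) and percent of cells with an Isg15 UMI (right), in cells thinned to 1000 UMIs, with 1 point per library and class. In alveolar macrophage-gated cells the mean was 1.00 and 0.779 UMIs in the WT-labelled libraries and 1.59 and 1.47 in the KO-labelled ones, while neutrophil-gated cells overlapped.

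The per-cell view at equal depth is a description, since cells are not replicates. Cells under 1000 UMIs were left out, in all classes together 88 and 153 against 80 and 83 cells of the 4 libraries, and in endothelial-gated cells 13 of 110, 55 of 220, 20 of 111 and 13 of 77. After thinning to 1000 UMIs, monocyte/macrophage-gated cells carried a mean of 4.07 and 4.32 member UMIs in the WT-labelled libraries and 4.87 and 5.25 in the KO-labelled ones. Neutrophil-gated cells carried 4.32 and 5.30 against 4.36 and 4.29, and 47.8% and 54.6% against 52.3% and 41.1% of them had an Isg15 UMI. In alveolar macrophage-gated cells the thinned Isg15 share was 0% and 0.581% against 2.40% and 2.55%, near the level of 1 UMI, and 10.1% and 8.67% against 18.6% and 18.5% without thinning. In CD4 T cells the share with an Isg15 UMI was 3.95% and 3.61% against 6.41% and 14.8%. Free RNA from other cells can give a UMI in a cell that does not express the gene, and no class lacks Isg15 by nature, so low shares cannot be set against a known zero.

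Dendritic-gated cells were few, 28 to 44 per library, and 23 of 24 tested members were higher, by a median of 0.72. Neither edgeR (0% of 4403 genes) nor DESeq2 called any, 11 were higher at an unadjusted p under 0.05, against 2.82%, and 11 had separate groups, against 17.9%. Parp14 was at 40.8 and 12.7 against 51.6 and 137.0 CPM (log2 difference 1.82 ± 0.58), Ube2l6 at 38.5 and 19.0 against 65.3 and 75.8 (1.27 ± 0.42), Herc6 at 38.5 and 23.2 against 75.6 and 61.2 (1.11 ± 0.39) and Tor3a at 47.6 and 44.4 against 75.6 and 96.2 (0.88 ± 0.31). These 4 had separate groups. In the second KO-labelled library 1 cell held 28.1% of the member UMIs, 384 UMIs. The median was 0.37 without that library and 1.10 without the first WT-labelled one. Check markers of neutrophils, none of the 4 at 0, were at 34.0 and 19.0 against 34.4 and 61.2 CPM. Those of alveolar macrophages, 1 of 4 at 0, were at most 2.27 in the WT-labelled and at least 14.6 in the KO-labelled libraries. The 6 gate markers of neutrophils, 2 at 0, went the other way, at 31.7 and 25.4 against 24.1 and 17.5 CPM. The 6 gate markers of alveolar macrophages, 2 at 0, overlapped, at 52.1 and 27.5 against 41.3 and 58.3. The part of all these in the result was not tested.

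Endothelial-gated cells differed little. Of 26 tested members 24 were higher, but by a median of 0.14, and 12 had separate groups, against 16.7% of all genes. No member was called by edgeR, which called 0.0392% of 7662 genes, or by DESeq2, and 3 were higher at an unadjusted p under 0.05, against 2.86%. Ifi27l2a was at 26.5 and 22.1 against 80.0 and 53.9 CPM (log2 difference 1.54 ± 0.30, adjusted p = 0.0936), Serpina3g at 164.7 and 138.8 against 294.5 and 185.0 (0.72 ± 0.18), Isg20 at 23.5 and 23.9 against 49.6 and 39.8 (0.95 ± 0.31) and Xaf1 at 88.2 and 87.3 against 104.0 and 117.1 (0.34 ± 0.18). The groups were separate for all 4, and Ifi27l2a and Serpina3g were called without the second KO-labelled library (1.14% of all genes). T cell gate markers, none of the 6 at 0, summed to 1.47 and 3.68 against 19.2 and 18.7 CPM in these cells, and monocyte and macrophage gate markers, 1 of the 6 at 0, were at most 59.2 CPM and higher in both KO-labelled libraries (59.2 and 42.1) than in either WT-labelled one. The 6 gate markers of mesenchymal cells, none at 0, summed to 291.1 and 340.2 against 621.0 and 468.3 CPM. Their 4 check markers, 1 at 0, were higher too, at 35.3 and 80.9 against 99.2 and 107.7. The 4 check markers of monocytes and macrophages, none at 0, went the other way. They were at least 971.8 CPM in the WT-labelled and at most 886.6 in the KO-labelled libraries. The 4 check markers of T cells, none at 0, overlapped, at 45.6 and 40.45 against 43.2 and 42.1. The part of all these in the result was not tested.

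In B-gated cells the members were split, 10 higher and 9 lower of 19 tested, with a median of 0.03 that turned to -0.15 without the second WT-labelled library and to -0.20 without the second KO-labelled. No member was called by edgeR, which called 0.0473% of 6338 genes, or by DESeq2. At an unadjusted p under 0.05, 1 was higher, against 2.3%, and 2 had separate and higher groups, against 14.6%. Ifi27l2a was at 611.2 and 556.3 against 587.0 and 1269 CPM (0.70 ± 0.28), a difference made by the second KO-labelled library: without that library it was -0.015, and without the first KO-labelled the gene was called. Herc6 was at 34.1 and 37.1 against 16.4 and 28.3 CPM (-0.72 ± 0.38), Znfx1 at 34.1 and 23.4 against 13.4 and 21.2 (-0.78 ± 0.42) and Serpina3g at 88.4 and 50.8 against 44.7 and 54.2 (-0.50 ± 0.31). Herc6 and Znfx1 had separate groups and Serpina3g did not. Check markers of neutrophils, none of the 4 at 0, summed to 356.1 and 101.6 against 35.75 and 999.9 CPM in B-gated cells. The 6 gate markers of neutrophils, 1 at 0, summed to 53.0 and 23.35 against 14.9 and 56.6. The part of either list in the result was not tested.

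The rest of the interferon pathway was described with the same test. Of the 17 type I interferon genes in the gene list, Ifnb1, Ifna1, Ifna2 and Ifna4 were at 0 UMIs in all 4 libraries. Counting error allows up to 3 for such a 0, and UMIs of the rest of the 17 are not given here. Ifng had 171 and 81 UMIs against 206 and 131. In whole libraries 14 of 16 receptors and signal transducers were higher, by a median of 0.26, with 0 called by edgeR and 5 higher at an unadjusted p under 0.05, a limit passed by 2.32% of all genes. The smallest p were those of Socs1, a feedback inhibitor of JAK kinases (0.54 ± 0.12), and Irf7, the amplifier of type I interferon transcription (0.99 ± 0.25). Of the other interferon-stimulated families 37 of 39 genes were higher, by a median of 0.50, led by Ifit2 (1.10 ± 0.11) and Ifit3 (1.10 ± 0.14), with 0 called and 18 at an unadjusted p under 0.05. Of the typical targets of interferon gamma 17 of 18 were higher, by a median of 0.34, led by Irgm1 (0.65 ± 0.15) and Gbp5 (0.90 ± 0.24), with 0 called and 4 at an unadjusted p under 0.05.

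In alveolar macrophage-gated cells 5 of 24 tested genes of the other interferon-stimulated families were called, all higher, against 0.243% of all genes, led by Ifitm3 (1.45 ± 0.20, adjusted p = 0.0296, edgeR) and Mndal (1.25 ± 0.19, adjusted p = 0.0394). Of 10 typical interferon gamma targets 0 were called and 7 were higher at an unadjusted p under 0.05, against 5.1% of all genes, led by Cxcl9 (1.39 ± 0.29, adjusted p = 0.104). The medians of these 2 lists were 1.03 and 0.87, beside 0.63 for the 25 members.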

How the data were processed

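The authors deposited 1 matrix of raw UMI counts per library, genes by barcodes, per the file headers. The submitters' processing notes name Cell Ranger 3.1.0, STAR and mm10. No annotation release is named in the sources used here. Groups follow the sample labels.

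Barcodes with under 200 genes or over 10% mitochondrial UMIs were left out (1126 of 10382), as were 216 doublets (Scrublet in scanpy 1.11.5, 0.8% per 1000 barcodes). A cell joined a class with at least 3 gate markers detected and every other class at no more than 0.5 times that number. Counts were summed per library and class and tested with edgeR 4.0.16 (R 4.3.3; TMM, quasi-likelihood, group as the single factor, at least 40 UMIs over the 4 libraries, Benjamini-Hochberg over all genes of a fit, adjusted p of 0.05). The limit of 40 UMIs does not use the groups, but a gene can reach it through either group alone. The fit had 2 residual degrees of freedom, and intervals from UMIs cover counting error only. CPM is relative to the summed cells' total, and log2 differences are KO-labelled minus WT-labelled. The code was tested on simulated data. Gene positions are from GENCODE vM21 and promoter windows from RefSeq, both GRCm38, the assembly of mm10.

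The alternatives were DESeq2 1.42.0, other scalings and filters on counts and cells, Leiden clusters (resolution 1) in place of gates, a stricter gate, a replicate block and leaving out each library. The genes, lists and tests were chosen with earlier results of these data known. Every member is named with its whole-library value; values per library are given for the 10 with the smallest p in whole libraries and the 4 with the smallest p in each class, and for others singled out after their values were seen. Of the other lists the 2 genes of smallest p are named. The results of 1 of these lists in alveolar macrophage-gated cells are not reported here.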

Additional observations from a re-analysis of the deposited data

Results flagged for a closer look

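Rtp4 differed between alveolar macrophage-gated and neutrophil-gated cells by a test of the difference itself: its log2 difference (KO-labelled minus WT-labelled) was 2.26 larger in the former (adjusted p = 0.0169, edgeR). Within alveolar macrophage-gated cells its call was lost with the replicate block (adjusted p = 0.143, edgeR). It was also lost with at most 1 marker of another class (1.61, adjusted p = 0.580, edgeR). Neither setting was run for the test between classes.

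For 8 members, 10 values went against the same gene in another class with which the difference was not tested: both KO-labelled libraries lay below both WT-labelled ones in one class and above them in at least one such other. The classes share the 4 libraries, and none of the 10 passed the test within its class. Both KO-labelled libraries lay below for 4 of 19 tested members in B-gated cells, against 17.4% of all genes. In neutrophil-gated cells this held for 4 of 25, against 26.4%. It held for 2 of 26 in endothelial-gated cells, against 19.3%, and for 1 of 16 in NK-gated cells, against 18.1%. Neutrophil-gated cells were tested against alveolar macrophage-gated cells, where Rtp4, Sp100 (0.64 larger, adjusted p = 0.820, edgeR) and Dtx3l (0.60, adjusted p = 0.894) were above. Dtx3l, at -0.15 in neutrophil-gated cells, had no other class above and is not among the 8. Of the 10 values, those in B-gated cells were Herc6 (-0.72 on the log2 scale), Znfx1 (-0.78), Phf11b (-0.29, from 73.2 and 53.6 against 50.7 and 51.9 CPM) and Trim30a (-0.16, from 72.0 and 72.8 against 64.1 and 63.7). In neutrophil-gated cells they were Samd9l (-0.20, from 157.2 and 191.6 against 150.2 and 127.8 CPM), Rtp4 (-0.17) and Sp100 (-0.11, from 194.7 and 226.0 against 179.7 and 178.5). In endothelial-gated cells they were Samd9l (-0.39, from 82.3 and 66.2 against 57.6 and 51.5 CPM) and Znfx1 (-0.12, from 61.8 and 59.8 against 54.4 and 56.2), and in NK-gated cells Ifi27l2a (-1.003).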

How the results depend on the processing

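Of the alternative values of single genes, 929 of 1043 kept their direction and side of the threshold, 100 gained a call, 11 lost one and 3 changed sign. The sign changes were Samd9l in whole libraries (-0.032 under library totals, and -0.013 to 0.070 with 1 library left out, lowest without the second KO-labelled library) and Ifi27l2a in B-gated cells (-0.015 without that library and up to 1.19 with another left out). The cause was not tested where none is named below.

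Numbers of members called moved as follows. DESeq2 called 1 in whole libraries (0.115% of all genes), 2 in alveolar macrophage-gated (0.166%) and 1 in monocyte/macrophage-gated cells (0.0115%). It called 1 in T-gated (0.0723%), 0 in NK-gated (0.0202%) and 1 in CD4 T cells (0.131%). With no filter on counts, which lets in genes of few UMIs, 10, 7, 5, 13, 5, 2, 5 and 11 were called in alveolar macrophage, monocyte/macrophage, dendritic, T, NK, endothelial, CD8 T and CD4 T cells. In the same order, 1.4%, 1.2%, 0.379%, 1.15%, 0.511%, 0.405%, 0.711% and 1.16% of all genes were called. The medians were then 0.73 in NK-gated and 1.36 in CD4 T cells. Library totals gave 2 calls in CD4 T cells (0.174% of all genes). The strict cell filter (500 genes, 5% mitochondrial) gave 1 call in T-gated (0.172% of all genes) and 1 in CD4 T cells (0.0809%). Its endothelial median was 0.36.

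Leiden clusters gave 3 calls in NK (0.504% of all genes) and 2 in CD4 T cells (1.04%). Their medians were -0.089 in neutrophils, 0.47 in monocytes/macrophages, 0.31 in endothelial and 0.67 in CD4 T cells. The strict gate (4 markers) gave a monocyte/macrophage median of 0.75 and left too few dendritic cells for a value. Cells with at most 1 marker of another class were a setting chosen after seeing the data, and it leaves fewer cells. This setting gave 2 calls in alveolar macrophages (0.0263% of all genes), 7 in T (0.413%), 1 in endothelial (0.236%) and 2 in CD8 T cells (0.0656%). Its medians were -0.056 in neutrophils, 0.47 in monocytes/macrophages, 0.31 in endothelial, 0.75 in CD8 T and 1.21 in CD4 T cells.

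Leaving out each library in turn gave 0 to 25 members called in whole libraries (0% to 19.6% of all genes), 4 to 10 in alveolar macrophages, 0 to 2 in monocytes/macrophages, 0 to 15 in T, 0 to 3 in NK, 0 to 1 in B, 0 to 2 in endothelial, 0 to 4 in CD8 T and 0 to 9 in CD4 T cells, and 1 to 4 for alveolar macrophages against neutrophils. Medians ran from -0.062 to 0.064 in neutrophils, -0.20 to 0.11 in B, 0.37 to 1.10 in dendritic, 0.39 to 1.08 in T, 0.11 to 0.88 in CD8 T and 0.45 to 1.34 in CD4 T cells. The lone library of a group is then assumed to vary like the others. In every class the share of all genes called also differed between these fits. The ranges of members called therefore do not describe the members alone.

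The labels number the libraries 1 and 2 in both groups without saying that a number marks a shared mouse or day, and with 2 pairs the data cannot settle it (correlations of same-numbered deviations of -0.29 in whole libraries and between -0.19 and 0.10 in the classes). With the replicate number as a block, 0 members were called in alveolar macrophages, as were 0% of all genes (edgeR, Ifi44 and Lgals3bp at an adjusted p of 0.138, Rtp4 at 0.143, Bst2 at 0.122). That block gave 2 calls in T (0.181% of all genes), 2 in endothelial (0.496%), 4 in CD8 T (0.893%) and 6 in CD4 T cells (1.57%). Isg15 stayed called in NK-gated cells (0.121%). A crossed replicate block, run after seeing the data where that correlation was under -0.1, gave 14 calls in T-gated and 11 in CD4 T cells. In those fits 3.25% and 4.37% of all genes were called.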
